A study of Mus musculus with 16 samples.

Results

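The genes described here encode the enzymes, regulators and carriers by which mouse heart breaks down the branched-chain amino acids (leucine, isoleucine and valine), oxidises ketone bodies and disposes of propionate. They were chosen by name, as the rows of the authors' deposited tables whose gene symbol is on a list of 31 genes. All 31 were present in each of the 4 tables, which hold 19917 to 21420 genes. The list holds 17 genes of amino acid steps, 6 of ketone steps and 8 of propionate and cobalamin steps.

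RNA was sequenced from hearts of mice after sham surgery (SHAM) or TAC, the usual abbreviation for transverse aortic constriction, an operation that narrows the aorta and loads the left ventricle with pressure. Mice received vehicle or NR, the usual abbreviation for nicotinamide riboside, a precursor of NAD+. There were 16 libraries, 3 of Vehicle SHAM, 4 of NR SHAM, 4 of Vehicle TAC and 5 of NR TAC. The labels give no strain, genotype, age, sex, dose or time after surgery, and do not say which part of the heart was taken or that each library is a separate animal, so a p-value may reflect no more than technical spread among libraries. Each of the authors' deposited tables compares 1 pair of groups and holds group means without values per library. A mean is therefore given without SD or n, and the spread between libraries enters only through the authors' DESeq p-values. Approximate standard errors (SE) of log2 fold changes were formed from the fold change and its p-value and are printed only where p was below 0.5, since they are unstable above it. Whether the libraries of 2 groups overlapped for a gene cannot be told from means.

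Breakdown of the branched-chain amino acids starts with transamination and continues in mitochondria, where the branched-chain ketoacid dehydrogenase complex commits the carbon to oxidation. That complex is switched off by a kinase and on by a phosphatase. Leucine carbon ends as acetyl-CoA and acetoacetate, while isoleucine and valine also yield propionyl-CoA, which enters the tricarboxylic acid cycle through a cobalamin-dependent mutase. Ketone bodies made by the liver are taken up by heart muscle, turned into acetoacetate and activated by a CoA transferase that the liver lacks. Lower transcripts of amino acid breakdown and more use of ketone bodies are known features of the pressure-loaded failing heart.

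Across genes, levels were compared as normalized counts per kilobase of annotated exon, on a scale shared by the 4 tables. Oxct1, the CoA transferase of ketone use (chromosome 15, 4026383 to 4155344 in GRCm38), had the highest level, 15998 per kilobase in Vehicle SHAM and 14615 in NR TAC. Acat1, the mitochondrial acetoacetyl-CoA thiolase, which serves ketone use and isoleucine breakdown alike, came next with 8049 per kilobase in Vehicle SHAM. Ivd, isovaleryl-CoA dehydrogenase of leucine breakdown, led the amino acid steps with 2870. At the other end stood Bcat1, the cytosolic transaminase, with 5.74 per kilobase, and Bdh2, a cytosolic dehydrogenase related to Bdh1, with 1.76. Bcat2, the mitochondrial transaminase, stood at 1470 per kilobase in the same group, 256 times Bcat1. Of the 31 genes, 27 had a mean of at least 1000 normalized counts in every group and 2 (Bcat1 and Bdh2) stayed below 100 in every group. In 26 of the 31, the highest of the 4 group means was less than 1.5 times the lowest.

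**Figure D1:**
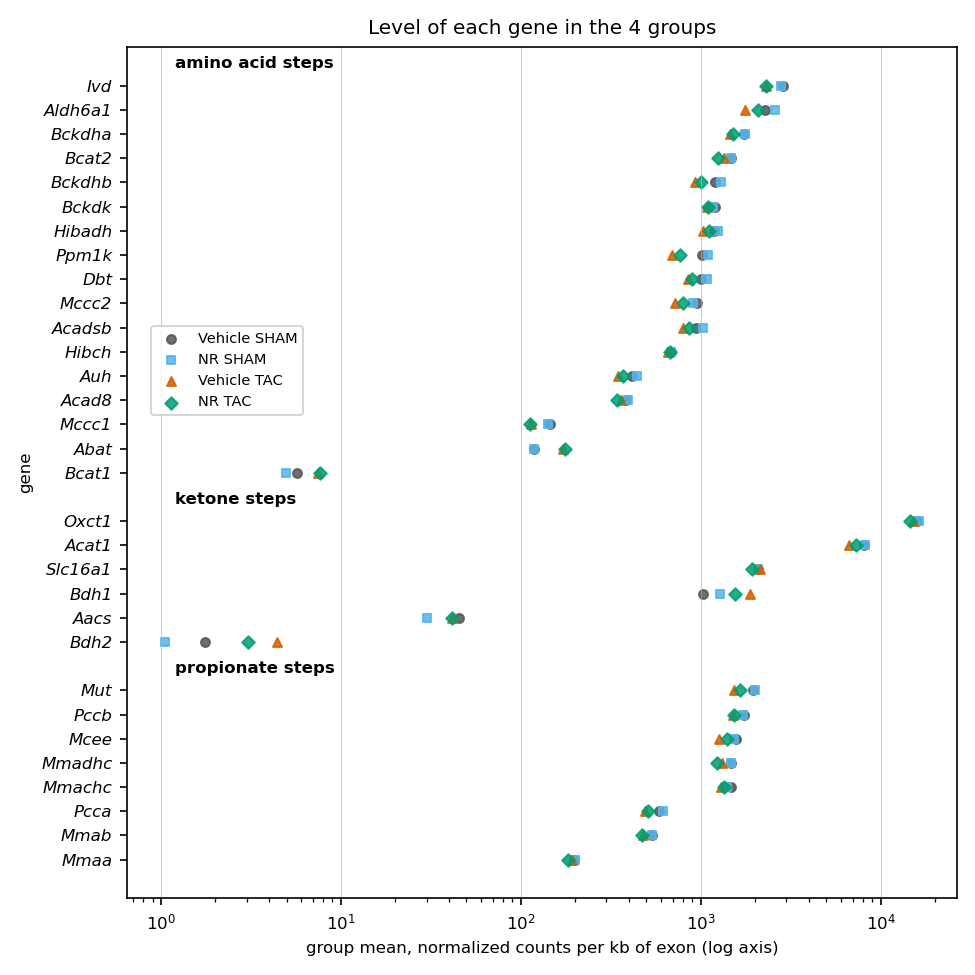
Group means of the 31 genes in normalized counts per kilobase of exon on a log axis, ordered within each set of steps by the Vehicle SHAM level, with 1 marker per group. Oxct1 and Acat1 stand apart at the high end, Bcat1, Aacs and Bdh2 at the low end, and for most genes the 4 markers nearly coincide.

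On this scale the 4 groups fell into an order that most genes shared. Both TAC means lay below both SHAM means in 25 of the 31 genes, which is 80.6%, against 23.7% of the 19256 genes present in all 4 tables and 35.6% of the 5423 genes with a highest mean of at least 1000. The amino acid steps held 15 of these genes of 17, the propionate steps 8 of 8 and the ketone steps 2 of 6. Vehicle TAC had the lowest of the 4 means in 18 genes and NR TAC in 8. The genes with both TAC means above both SHAM means were Bcat1, Abat, Bdh1 and Bdh2. These are orders of means, and the differences behind most of them did not pass the test gene by gene, as the values that follow show.

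The regulators of the dehydrogenase complex carried the only call among the 31 genes in the 4 comparisons, 1 gene of 31 after TAC in NR hearts, where DESeq called 0.549% of all genes at an adjusted p below 0.05. After TAC in vehicle hearts it called 0.0487% of all genes and 0 of the 31. Ppm1k, the mitochondrial phosphatase that activates the complex (chromosome 6, 57506502 to 57535468 in GRCm38, minus strand), had levels of 6153 normalized counts in Vehicle SHAM, 6607 in NR SHAM, 4195 in Vehicle TAC and 4655 in NR TAC. Both TAC groups stood well below both SHAM groups. In the authors' deposited table for NR hearts, Ppm1k fell by 0.50 on the log2 scale after TAC (approximate SE 0.138, DESeq adjusted p 0.0471), and its mean fell by 29.5%. For vehicle hearts the authors' deposited table held −0.55 (approximate SE 0.273, unadjusted p 0.0427, and 1 after DESeq's adjustment), which did not pass. The TAC effects of Ppm1k with and without NR differed by 0.05 (approximate 95% interval −0.55 to 0.65). Bckdk, the kinase that switches the complex off, had log2 fold changes of −0.14 (unadjusted p 0.4) in vehicle hearts and −0.09 (unadjusted p 0.537) in NR hearts in the authors' deposited tables. Set per kilobase, the level of Bckdk was 1.17 times that of Ppm1k in Vehicle SHAM, 1.06 times in NR SHAM, 1.56 times in Vehicle TAC and 1.42 times in NR TAC. The ratio was higher in both TAC groups than in both SHAM groups and was not tested.

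The promoter of Ppm1k is shown because it belongs to the called gene, and those of Bckdhb, among the lower genes, and Bdh1, among the higher ones, are shown beside it. Bckdhb and Bdh1 have 2 listed starts each, and the printed window is the one of the pair that holds the motif described next. Each is the 250 bases before a RefSeq transcription start (GRCm38.p6), 5′ to 3′ on the gene's strand: chr6:57535488-57535737 on the minus strand, chr9:83924887-83925136 on the plus strand and, for the downstream of the 2 listed Bdh1 starts, inside the annotated gene, chr16:31428503-31428752 on the plus strand. Capitals mark CACCC, the core bound by KLF factors, on either strand (GGGTG when read on the printed strand).
Ppm1k: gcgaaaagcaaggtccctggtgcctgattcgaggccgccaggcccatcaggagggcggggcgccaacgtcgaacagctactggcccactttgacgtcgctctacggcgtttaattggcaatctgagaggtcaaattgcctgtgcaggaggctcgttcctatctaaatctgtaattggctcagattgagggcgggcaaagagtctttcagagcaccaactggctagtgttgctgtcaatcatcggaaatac
Bckdhb: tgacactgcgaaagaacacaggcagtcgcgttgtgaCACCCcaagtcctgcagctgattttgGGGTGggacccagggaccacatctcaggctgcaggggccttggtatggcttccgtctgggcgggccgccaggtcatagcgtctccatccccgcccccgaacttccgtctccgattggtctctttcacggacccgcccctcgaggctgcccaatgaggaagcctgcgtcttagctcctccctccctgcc
Bdh1: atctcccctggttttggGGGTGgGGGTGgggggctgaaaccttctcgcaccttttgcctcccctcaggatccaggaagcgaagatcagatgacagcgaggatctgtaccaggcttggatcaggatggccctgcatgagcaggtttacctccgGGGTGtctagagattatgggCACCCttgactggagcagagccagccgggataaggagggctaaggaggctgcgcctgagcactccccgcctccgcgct
The Ppm1k window holds no CACCC, the printed Bckdhb window holds 2 and the printed Bdh1 window holds 4, while the window of the other start of Bckdhb and of Bdh1 holds 0 in each case, so no contrast between the genes is drawn from them. RefSeq promoters were matched for 26 of the 31 genes, with 33 starts, of which 20 (60.6%) held CACCC, against 52% of all 32851 promoters of that length. AAGGTCA, the core recognised by estrogen-related receptors, was in 0 of the 33 windows on either strand and in 4.08% of all promoters. A CACCC that follows AAGGTCA directly can share its first 2 letters, CA, and each motif was counted on its own. A match or its absence describes these letters only.

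The catalytic subunits of the complex were lower after TAC in both treatments without passing the adjusted test. Bckdhb, which encodes the E1 beta subunit (chromosome 9, 83925145 to 84124240), had levels of 2176 normalized counts in Vehicle SHAM, 2347 in NR SHAM, 1681 in Vehicle TAC and 1805 in NR TAC. Its log2 fold changes were −0.37 in vehicle hearts (approximate SE 0.17, unadjusted p 0.0282) and −0.38 in NR hearts (approximate SE 0.14, unadjusted p 0.00685) in the authors' deposited tables, and the DESeq adjusted p-values were 0.97 and 0.317. It and Ppm1k were the 2 genes of the 31 with an unadjusted p below 0.05 in both TAC comparisons. Bckdha, the E1 alpha subunit, had −0.26 (approximate SE 0.166, unadjusted p 0.118) and −0.22 (approximate SE 0.135, unadjusted p 0.111) in vehicle and NR hearts in the authors' deposited tables, with levels of 3307 normalized counts in Vehicle SHAM, 3356 in NR SHAM, 2766 in Vehicle TAC and 2887 in NR TAC. Dbt, the E2 transacylase, had −0.23 and −0.28 in the authors' deposited tables. Of these 4 values, only that of Dbt in NR hearts had an unadjusted p below 0.05 (0.0374).

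The transaminases that precede the complex did not share a direction. Bcat2 had log2 fold changes of −0.12 in vehicle and −0.23 in NR hearts in the authors' deposited tables (unadjusted p 0.471 and 0.11). Bcat1 had 0.38 and 0.61 (unadjusted p 0.25 and 0.0325), from means of 53.5 and 44.1 normalized counts in the SHAM groups to 70.0 and 67.9 in the TAC groups of the authors' deposited tables. Neither passed the adjustment.

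In the leucine branch all 4 genes were lower after TAC in both treatments. Mccc2, the beta subunit of methylcrotonoyl-CoA carboxylase, had the smallest p-value of any lower gene of the list in vehicle hearts, with means of 2685 and 2019 normalized counts and −0.41 on the log2 scale in the authors' deposited table (approximate SE 0.172, unadjusted p 0.0165, DESeq adjusted p 0.886). In NR hearts it had −0.19 in the authors' deposited table (unadjusted p 0.174). Its partner subunit Mccc1 had −0.35 and −0.32, Ivd had −0.32 and −0.28, and Auh, the methylglutaconyl-CoA hydratase, had −0.25 and −0.27 in vehicle and NR hearts in the authors' deposited tables. In NR hearts these 3 had unadjusted p-values of 0.0239, 0.0328 and 0.0436, and none passed the adjustment.

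All 5 genes of the isoleucine and valine branches had negative fold changes in both treatments as well. Aldh6a1, methylmalonate semialdehyde dehydrogenase at the end of valine breakdown, ran from 14950 normalized counts in NR SHAM and 13162 in Vehicle SHAM to 12043 in NR TAC and 10181 in Vehicle TAC. The TAC log2 fold changes of Aldh6a1 were −0.37 (approximate SE 0.207, unadjusted p 0.0719) in vehicle and −0.31 (approximate SE 0.135, unadjusted p 0.0217) in NR hearts in the authors' deposited tables. Acadsb, the dehydrogenase of the isoleucine branch, had −0.25 and −0.27, and Acad8, that of the valine branch, had −0.10 and −0.20 in the authors' deposited tables. Hibadh, hydroxyisobutyrate dehydrogenase, had −0.20 and −0.16, and Hibch, the hydrolase before it, had −0.05 and −0.01 in the authors' deposited tables. Hibch thus had the smallest fold changes of the branch, and its highest group mean was 1.04 times its lowest.

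Abat, like Bcat1, lay apart from the other amino acid genes, with higher means after TAC. Abat encodes the mitochondrial transaminase of GABA, which also acts on beta-aminoisobutyrate of valine breakdown (chromosome 16, 8513429 to 8621568). Its levels were 920 normalized counts in Vehicle SHAM, 916 in NR SHAM, 1327 in Vehicle TAC and 1372 in NR TAC. The SHAM means lay close together and the TAC means lay close together above them, yet neither comparison passed: the log2 fold changes were 0.53 (approximate SE 0.228, unadjusted p 0.0209) in vehicle hearts and 0.58 (approximate SE 0.33, unadjusted p 0.0767) in NR hearts in the authors' deposited tables.

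The ketone steps had no common direction. Bdh1, the mitochondrial dehydrogenase that interconverts beta-hydroxybutyrate and acetoacetate (chromosome 16, 31422280 to 31458901), had levels of 4002 normalized counts in Vehicle SHAM, 4990 in NR SHAM, 7333 in Vehicle TAC and 6077 in NR TAC. Vehicle TAC was the highest group and Vehicle SHAM the lowest. In the authors' deposited table the TAC log2 fold change of Bdh1 in vehicle hearts was 0.87, a mean 83.1% higher (approximate SE 0.386, unadjusted p 0.0238, DESeq adjusted p 0.932). With NR it was 0.29 (approximate SE 0.283, unadjusted p 0.314) in the authors' deposited table. These TAC effects differed by −0.59 (approximate SE 0.479, approximate 95% interval −1.53 to 0.35, adjusted p 1), so a difference between vehicle and NR hearts was not shown. Oxct1, which acts next on the same carbon, had −0.07 (unadjusted p 0.659) and −0.17 (unadjusted p 0.274) in the authors' deposited tables. Per kilobase, Bdh1 stood at 6.43% of Oxct1 in Vehicle SHAM, 7.82% in NR SHAM, 12.4% in Vehicle TAC and 10.7% in NR TAC.

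None of the other ketone genes passed the adjustment. Acat1, with both TAC means below both SHAM means, had −0.27 and −0.18 (unadjusted p 0.0952 and 0.169), and Slc16a1, the monocarboxylate transporter MCT1 that carries ketone bodies and lactate, had 0.03 and −0.12 (unadjusted p 0.848 and 0.383) in vehicle and NR hearts in the authors' deposited tables. Aacs, the cytosolic acetoacetyl-CoA synthetase, had −0.13 in vehicle hearts and 0.46 in NR hearts (unadjusted p 0.735 and 0.032) in the authors' deposited tables, with the lowest of its 4 group means, 116 normalized counts, in NR SHAM. Bdh2 had 1.22 and 1.34 (unadjusted p 0.14 and 0.0947) in the authors' deposited tables, from means of 7.46 and 4.27 to 18.7 and 12.3 normalized counts, too few for its fold to be read closely.

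All 8 propionate and cobalamin genes had negative TAC fold changes in vehicle hearts and in NR hearts, with medians of −0.19 and −0.17. Mut, the methylmalonyl-CoA mutase, had levels of 7407 normalized counts in Vehicle SHAM, 7636 in NR SHAM, 5828 in Vehicle TAC and 6241 in NR TAC. Its log2 fold changes were −0.35 (approximate SE 0.202, unadjusted p 0.0865) and −0.29 (approximate SE 0.135, unadjusted p 0.0319) in vehicle and NR hearts in the authors' deposited tables. Pcca, with levels of 3047 normalized counts in Vehicle SHAM, 3204 in NR SHAM, 2565 in Vehicle TAC and 2648 in NR TAC, followed the same order. Pcca and Pccb, the subunits of propionyl-CoA carboxylase, had −0.25 and −0.20 in vehicle and −0.27 and −0.17 in NR hearts in the authors' deposited tables, with p below 0.05 only for Pcca in NR hearts (0.0432). Mcee, the epimerase before the mutase, had −0.31 and −0.13 in vehicle and NR hearts in the authors' deposited tables. Mmaa, Mmab, Mmachc and Mmadhc, which process cobalamin or guide it to the mutase and to methionine synthase, ran from −0.19 to −0.04 in vehicle and from −0.25 to −0.06 in NR hearts in the authors' deposited tables. None of the 8 passed the adjustment.

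**Figure D2:**
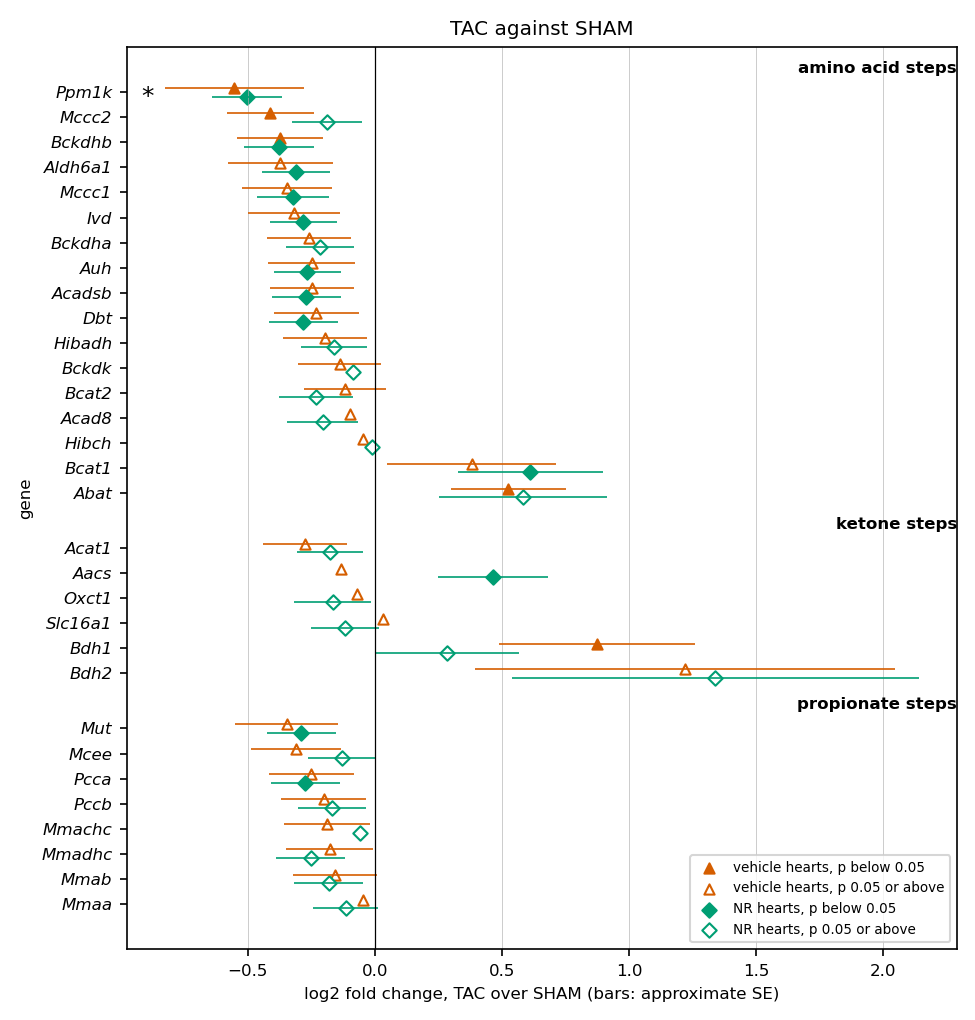
Log2 fold changes of TAC over SHAM for each gene in vehicle hearts (triangles) and NR hearts (diamonds), with bars of 1 approximate SE where p was below 0.5, filled where the unadjusted p was below 0.05 and with an asterisk at Ppm1k, whose adjusted p was below 0.05 in NR hearts. Most amino acid genes and all propionate genes lie left of 0 in both treatments, while Abat, Bcat1, Bdh1 and Bdh2 lie right of it.

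Counted over the list, TAC in NR hearts gave 1 call among 31 genes at a DESeq adjusted p below 0.05, beside 115 of 20946 genes. An unadjusted p below 0.05 was found for 12 of the 31 there, 38.7%, against 6.98% of all genes; 10 were lower and 2 (Bcat1 and Aacs) higher. All 10 had a mean of at least 1000, and among the 28 listed genes of that level they made 35.7%, against 6.61% of the 5040 genes of that level that were lower with such a p. TAC in vehicle hearts gave 0 calls in DESeq, beside 10 of 20540 genes. In vehicle hearts 5 of the 31 had an unadjusted p below 0.05, 16.1% against 4.89% of all genes: Mccc2, Bckdhb and Ppm1k were lower, Abat and Bdh1 higher. The 3 lower ones made 10.7% of the 28 listed genes with a mean of at least 1000, against 3.48% of the 5289 genes of that level. The median log2 fold change of the list was −0.20 in vehicle and −0.18 in NR hearts, beside 0.01 and 0.02 over all genes. Among genes with a larger mean of at least 1000 the medians were −0.22 and −0.20 for the 28 listed genes. Over all genes of that level they were −0.03 and −0.03. Since transcripts of 1 pathway in the same libraries are not independent, these shares describe the list and were not tested.

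The TAC comparisons of vehicle and of NR hearts share no library, and 25 genes were lower in both, 4 higher in both. Among the 25, the fold change was closer to 0 in NR hearts for 14. The difference of the TAC effect between NR and vehicle hearts, an approximate z over 18774 genes, used errors formed at every p, those above 0.5 included, which are unstable. It was called for 0 of the 31 genes and 0 of all genes, and 0 of the 31 (158 of all genes) had an unadjusted p below 0.05. Those 158 of 18774 genes are far fewer than a threshold of 0.05 would pass with no difference at all. The approximate z is thus conservative, and its 0 calls do not show that the TAC effects were equal.

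Set beside the neighbouring fuel pathways, the amino acid steps had a median of −0.25 in vehicle and −0.23 in NR hearts. Fatty acid oxidation genes had medians of −0.38 and −0.29 with 20 of 20 lower in each, and tricarboxylic acid cycle genes −0.23 and −0.23 with 18 of 18 lower in each. Of the amino acid genes 15 of 17 were lower in each. Among all genes 48.1% were lower in vehicle and 46.8% in NR hearts. Among genes with a larger mean of at least 1000 the shares were 56.8% and 57.2%. The ketone steps had medians of −0.02 and 0.08, with 3 of 6 lower in each. These medians include the low genes Bdh2 (4.27 and 12.3 normalized counts in NR SHAM and NR TAC) and Aacs (111 and 154). Among the other ketone genes in NR hearts, Oxct1 (−0.17), Acat1 (−0.18) and Slc16a1 (−0.12) were lower and Bdh1 (0.29) higher. In vehicle hearts Oxct1 (−0.07) and Acat1 (−0.27) were lower and Slc16a1 (0.03) and Bdh1 (0.87) higher. No difference between these lists was tested.

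**Figure D3:**
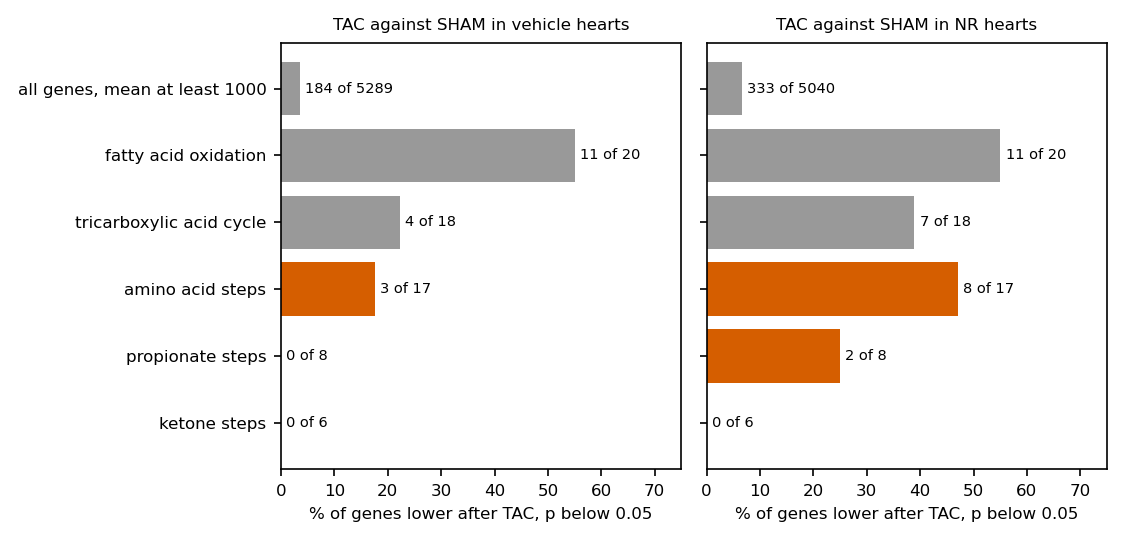
Percentage of genes in each list that had a lower mean after TAC with an unadjusted p below 0.05, in vehicle hearts (left) and NR hearts (right), with the number of genes written at each bar. The amino acid steps reached 8 of 17 in NR hearts and 3 of 17 in vehicle hearts, the ketone steps 0 of 6 in both. Fatty acid oxidation reached 11 of 20 in both, and the tricarboxylic acid cycle 7 of 18 in NR and 4 of 18 in vehicle hearts. Among all genes with a larger mean of at least 1000 the share was 6.61% in NR and 3.48% in vehicle hearts.

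NR against vehicle left the list near level in TAC hearts. DESeq called 0 of the 31 genes (background 0% of 21420 genes), 0 had an unadjusted p below 0.05 (background 2.61%), and the median log2 fold change was 0.04. Of the amino acid genes 14 of 17 had a positive fold change, led by Aldh6a1 with 0.24 (approximate SE 0.201, unadjusted p 0.229) in the authors' deposited table. So did 17 of 20 fatty acid oxidation genes, 13 of 18 tricarboxylic acid cycle genes and 10649 of all 21420 genes. Of the ketone genes 4 of 6 had a negative fold change, among them Bdh1 with −0.27 (approximate SE 0.256, unadjusted p 0.288) in the authors' deposited table. Ppm1k had 0.15 (unadjusted p 0.541) and Bcat2 −0.12 (unadjusted p 0.445) in the authors' deposited table. Vehicle TAC and NR TAC libraries serve here and in the TAC comparisons too, so the values of these comparisons are not independent of each other.

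In SHAM hearts NR gave 0 calls in DESeq (background 0% of 19917 genes), 0 of the 31 genes with an unadjusted p below 0.05 (background 1.88%) and a median log2 fold change of 0.01. The smallest p-values belonged to Aacs, with −0.58 (approximate SE 0.342, unadjusted p 0.0906), and Aldh6a1, with 0.18 (approximate SE 0.114, unadjusted p 0.104), in the authors' deposited table. Bdh1 had 0.32 (approximate SE 0.302) there, opposite in sign to its value in TAC hearts, and neither passed. A p above the threshold does not show that NR left these genes unchanged.

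**Figure D4:**
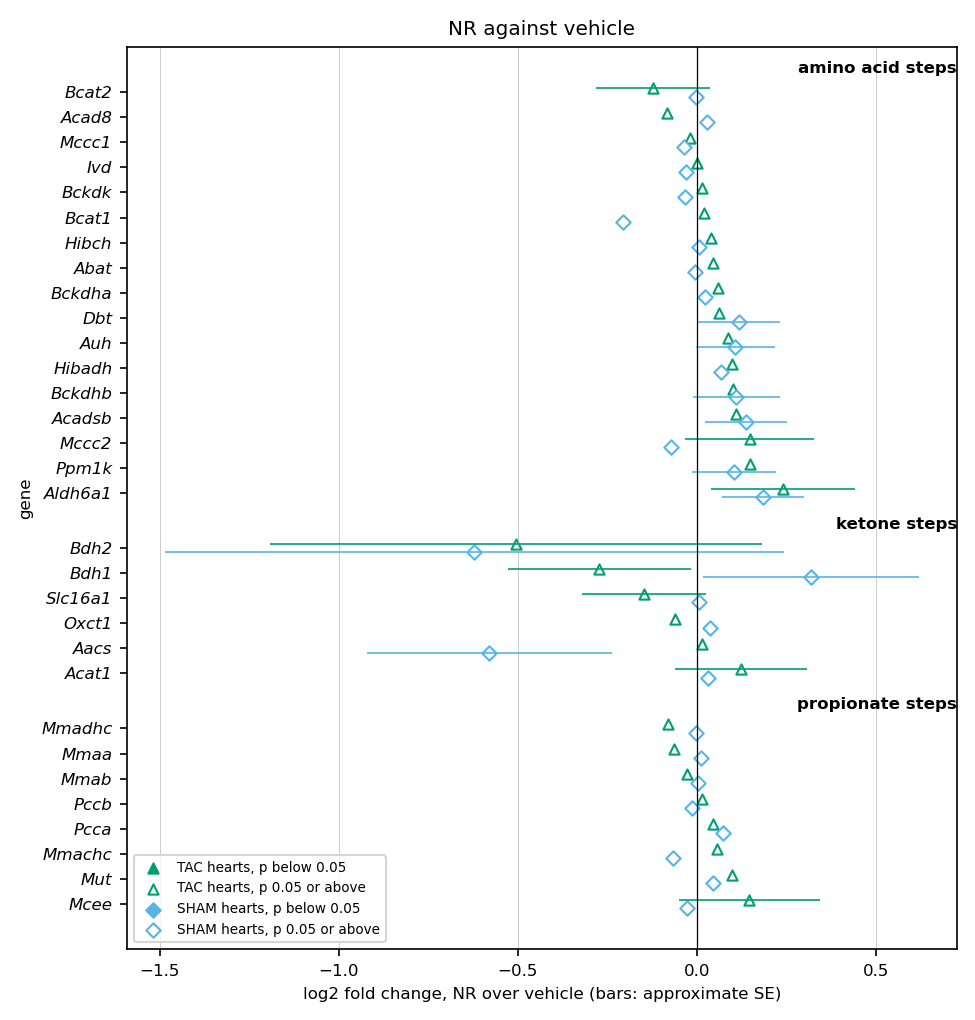
Log2 fold changes of NR over vehicle for each gene in TAC hearts (triangles) and SHAM hearts (diamonds), with bars of 1 approximate SE where p was below 0.5. No marker is filled, since none of the 31 genes had an unadjusted p below 0.05 in either comparison, and most lie within 0.2 of 0 on the log2 scale.

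Beyond the list, 36 shared or adjoining enzymes, carriers and regulators were looked up, of which 34 to 35 were present in a table. TAC in NR hearts gave 1 call among 34: Slc16a7, the monocarboxylate transporter MCT2, fell by 0.66 on the log2 scale, from 555 to 351 normalized counts, in the authors' deposited table (approximate SE 0.169, DESeq adjusted p 0.0277). For vehicle hearts the authors' deposited table gave Slc16a7 −0.73 (approximate SE 0.21, unadjusted p 0.000474, DESeq adjusted p 0.261), which did not pass. NR gave it 0.53 in TAC hearts and 0.46 in SHAM hearts (unadjusted p 0.011 and 0.0142, DESeq adjusted p 1 in each) in the authors' deposited tables. MCT2 thus had its lowest level, 255 normalized counts, in Vehicle TAC and its highest, 581, in NR SHAM, while Slc16a1 differed little.

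Slc7a5, the light chain of the LAT1 transporter that brings branched-chain amino acids into cells, had means of 153 and 308 normalized counts in vehicle hearts (approximate 95% interval of the log2 fold change 0.43 to 1.57, unadjusted p 0.000528, DESeq adjusted p 0.262) and 217 and 381 in NR hearts (0.81, unadjusted p 0.18) in the authors' deposited tables. Neither passed. Klf15, a transcription factor known to drive amino acid breakdown genes in heart, had 1672 normalized counts in Vehicle TAC and 2511 in NR TAC in the authors' deposited table (0.59, approximate SE 0.178, unadjusted p 0.000985, DESeq adjusted p 1). Its TAC fold changes were −0.25 and 0.13 in vehicle and NR hearts in the authors' deposited tables. Klf15 and Slc16a7 were the 2 of 35 neighbours with an unadjusted p below 0.05 for NR in TAC hearts (5.71%, against 2.61% of all genes), and Slc16a7 the 1 of 34 in SHAM hearts (2.94%, against 1.88%), shares near those of all genes. After TAC in NR hearts 8 of the 34 neighbours (23.5%, against 3.45% of all genes) were lower with an unadjusted p below 0.05 and 1, Slc16a3 (0.68), was higher (2.94%, against 3.52%). The other 7 lower ones were fatty acid oxidation enzymes or their electron carrier: Acaa2 (−0.45), Ech1 (−0.46), Hadhb (−0.35), Hadh (−0.34), Etfa (−0.32), Echs1 (−0.31) and Hadha (−0.30), in the authors' deposited table. In vehicle hearts 8 of 35 (22.9%, against 2.12% of all genes) were lower with such a p and 1, Slc7a5, higher (2.86%, against 2.77%); Etfdh (−0.37) joined the lower ones in place of Echs1 (−0.24) in the authors' deposited table.

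**Figure D5:**
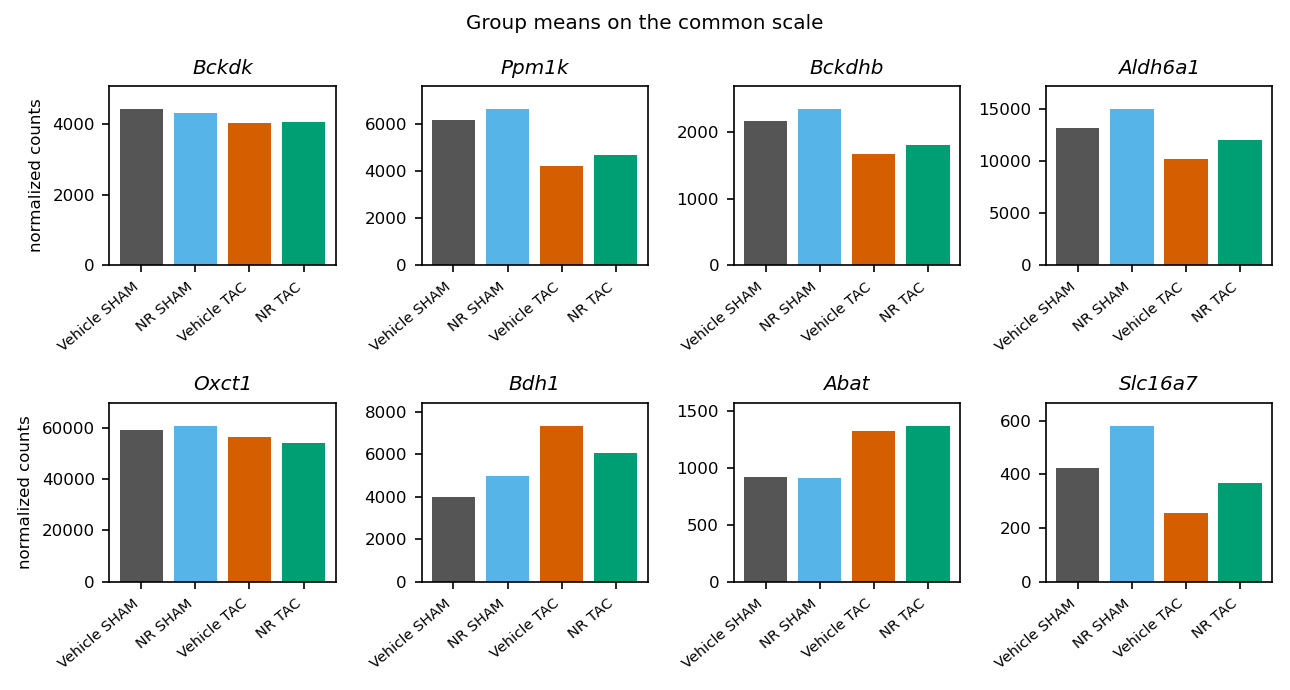
Group means in normalized counts on the common scale for 8 genes, with axes starting at 0 and no error bars because the tables hold means only. Ppm1k, Bckdhb and Slc16a7 were lower in both TAC groups, Bdh1 and Abat higher, and Bckdk and Oxct1 nearly level.

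Markers of cell types moved beside these genes. In bulk hearts fewer cells of a type and less RNA per cell cannot be told apart. In the authors' deposited tables Acta1, the stress gene that checks the surgery, rose after TAC in vehicle hearts (log2 fold change 3.30, DESeq adjusted p 0.0264) and in NR hearts (2.60, DESeq adjusted p 6.16e-05). Of 8 cardiomyocyte markers 7 were lower after TAC in each treatment, with medians of −0.29 and −0.24 and a summed level of 2461172 normalized counts in Vehicle SHAM, 2534114 in NR SHAM, 2167365 in Vehicle TAC and 2173889 in NR TAC. The shift of the amino acid genes was thus of the size of that of the cardiomyocyte markers, and the part of one in the other was not tested. The 10 hepatocyte markers summed to 289 in Vehicle SHAM, 531 in NR SHAM, 41284 in Vehicle TAC and 1062 in NR TAC, and Alb, albumin, had 25.1, 116, 24946 and 10.5 in that order; Fgb was listed at 0 in NR TAC. All 10 were higher after TAC in vehicle hearts, and 8 of 10 were lower in NR hearts. An unadjusted DESeq p below 0.05 was found for 0 of the 10 in vehicle hearts. In NR hearts 3 were lower with such a p (3.45% of all genes). For Alb in vehicle hearts the log2 fold change was 9.90 (approximate SE 5.53, unadjusted DESeq p 0.0733). For NR against vehicle in TAC hearts 10 of 10 were lower, 7 of them with such a p (1.72% of all genes). Several of the 31 genes, Bdh1 and Abat among them, are also expressed in liver, and the part of the hepatocyte markers' RNA in the Vehicle TAC means was not tested. Ahsg made 264 of the hepatocyte sum in NR SHAM and 1008 of that in NR TAC. In NR hearts the TAC log2 fold changes were 0.58 for Abat, −0.50 for Ppm1k and 0.29 for Bdh1 in the authors' deposited table, beside 0.53, −0.55 and 0.87 in vehicle hearts. Of the adipocyte markers 6 of 7 measured were lower after TAC in vehicle hearts and 7 of 8 higher in NR hearts, with sums between 11117 and 12997, and Adipoq had 390, 58.3, 74.7 and 194 in the same order. Fabp4 alone made 10300 to 10792 of each sum, so the sums hide the differences of the other adipocyte markers. Of 5 atrial markers 4 were higher in vehicle and 5 in NR hearts, with sums from 6991 in NR SHAM to 73984 in NR TAC, and Myl7 had 2494, 1335, 3177 and 10789. Nppa, which was also listed as a stress gene of TAC, made 49269 of the sum of 59261 in Vehicle TAC and 28611 in NR TAC. In vehicle hearts the Bmp10 mean was lower (−3.95, approximate SE 3.01, DESeq unadjusted p 0.189). Sln, Myl4 and Myl7 had 0.31, 0.39 and 0.35 there (DESeq unadjusted p 0.968, 0.93 and 0.95). The means of adipose and atrial markers thus differed between groups too, mostly without a small p. After TAC an unadjusted DESeq p below 0.05 was found for 0 of 7 adipocyte and 1 of 5 atrial markers in vehicle hearts (4.89% of all genes). In NR hearts it was found for 1 of 8 and 2 of 5 (6.98% of all genes). The part of adipose and atrial RNA in the values was not tested. Fibroblast markers (6) had median log2 fold changes of 0.62 and 0.44 and macrophage markers (6) of 0.39 and 0.35 after TAC in vehicle and NR hearts, with 5 of 6 higher in vehicle and 6 of 6 in NR hearts in each list; the sums ran from 50407 to 75651 and from 4649 to 6310.

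Exons of 10 of the 31 genes overlap those of another annotated gene, and for 5 more than 10% of exon bases do, all with a gene on the opposite strand: Bckdha (61.7%, with B3gnt8), Aldh6a1, Bcat2, Bdh1 and Oxct1. The strand setting of the counting is not given in the sources used here. The partners' means were small beside those of the listed genes, for example 122 normalized counts of B3gnt8 beside 3309 of Bckdha in Vehicle SHAM in the authors' deposited table. Such means do not show how reads in the shared bases were counted, and the effect of the overlap on the levels was not tested.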

How the data were processed

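RNA from heart tissue was sequenced on a BGISEQ-500 instrument, per the labels. The submitters' processing notes name TopHat, HTSeq, DESeq and the build GRCm38, with no versions. Each of the 4 deposited tables covers 1 pair of groups. Its signal columns hold the authors' mean for each group after size-factor normalization of counts. The deposited fold is a ratio, with 1 added to each mean, and is deposited on the log2 scale as well; this understates the change of low genes. Each deposited p-value comes from the authors' DESeq test and was adjusted by Benjamini-Hochberg over the table. Fold and adjusted p were recomputed and matched to within rounding. Library depth is not given, so no counting interval is.

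A call is an adjusted p-value below 0.05. The planned edgeR test needs counts per library and was not run. For levels in all 4 groups, tables were scaled by the median ratio of each shared group over genes at 50 or more, and a group's means were averaged over the tables that hold it. Levels per kilobase used merged exons of GENCODE M21. The approximate SE is the log2 fold change divided by the normal quantile of p. The difference of TAC effects was divided by its combined error and adjusted over all genes. It was run on simulated data with larger fold changes than these differences and a single spread for all genes. That run cannot tell how often differences of the size seen here are missed. Python 3.11.15, pandas 2.3.3 and scipy 1.17.1 were used.

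The genes, lists and naming rule were chosen with earlier results of these data known. Full statistics are given for called genes, for the smallest p of each sign in each table and for the defining enzyme of each step; neighbours are named where an unadjusted p was below 0.05. Alternatives changed the threshold, the genes adjusted over, the pseudocount, the minimum mean and the centring. The background of genes at 1000 or more was chosen after seeing the data.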

Additional observations from a re-analysis of the deposited data

How the results depend on the processing

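The number of genes called in NR hearts after TAC was 1 at adjusted p thresholds of 0.05 and 0.1 and when adjusted over genes whose larger mean reached 10 or 50, and 0 at a threshold of 0.01. In the other 3 comparisons it was 0 under each of these. Over the pseudocounts of 0 and 10, the minimum mean of 50 and centring, the median of the list after TAC ranged from −0.20 to −0.19 in vehicle hearts and from −0.19 to −0.18 in NR hearts, and that for NR in TAC hearts was 0.04. For NR in SHAM hearts the median was 0.0068, and 0.0107 without genes under a mean of 50. A pseudocount of 10 took the TAC log2 fold change of Bdh2 to 0.72 in vehicle and 0.65 in NR hearts. The difference of TAC effects was called for 0 genes also when adjusted over genes at 50 or more, and 25 genes had both TAC means below both SHAM means also in the tables as deposited. Leaving out each library in turn was not run, since the tables hold group means, so what a single library adds to a mean cannot be told. No paired analysis was possible because the labels give no replicate numbers and the tables no values per library.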

Other observations

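Agxt2, a mitochondrial aminotransferase at home in liver and kidney that clears beta-aminoisobutyrate, a by-product of valine and thymine breakdown, was listed at 0 in Vehicle SHAM and at 37.5 normalized counts in Vehicle TAC (unadjusted p 0.127) in the authors' deposited table. It was listed at 38.1 in Vehicle TAC and 0.40 in NR TAC (unadjusted p 0.0791) in the authors' deposited table for NR in TAC hearts. Neither comparison passed the adjustment. The hepatocyte marker Alb was also highest in Vehicle TAC, with 24946 normalized counts beside 25.1 in Vehicle SHAM and 10.5 in NR TAC. The part of the hepatocyte markers' RNA in the Agxt2 means was not tested.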
